A study of Mus musculus with 48 samples.

Results

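Type I interferon response genes are the transcripts that cells raise when interferon-alpha or interferon-beta is bound at their surface. The set described here holds 10 such genes, Rsad2, Ifit1, Ifit2, Ifit3, Isg15, Irf7, Irf9, Ifi27, Ifi35 and Ifi204. All probe sets to which the platform's annotation gives exactly 1 of these symbols were taken, and all 10 genes were found, with 13 of the 12422 probe sets tested (8251 genes in all). Irf7 was read by 2 probe sets and Ifi204 by 3, each of which is described apart, and the other genes by 1 each. The genes were followed in 4 tissues (liver, heart, spleen and lung) of 2 inbred mouse strains, A/J and C57BL/6J, at 2 times, labelled time 1 and time 2 with no further meaning given. The 16 groups so formed held 3 arrays each, made from male mice of 3 months that the labels call littermates, and no treatment or infection is named for any group. Neither the number of litters nor any link between tissues of 1 animal can be read from the labels, so p-values measure only the spread between these arrays.

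Binding of type I interferon to its receptor activates the kinases Jak1 and Tyk2 inside the cell. A transcription complex that holds Irf9 then binds a DNA element called the interferon-stimulated response element and turns on the response genes. Irf7 is itself a response gene and drives further interferon transcription, and many response genes keep a low basal level in tissues with no infection. The products act on viruses at several steps: the Ifit proteins bind foreign RNA, Rsad2 (viperin) makes a chain-terminating nucleotide, and Isg15 is a small protein that is conjugated to others. Ifi204 belongs to the HIN-200 family of DNA-binding proteins, which is encoded in a cluster of closely related genes.

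The response element bears on this set because it is the DNA sequence that the complex with Irf9 binds, and the windows that hold its core are shown here. RefSeq promoter windows of assembly GRCm38.p6 were at hand for 8 of the 10 genes, in 10 windows, and were read over the 250 bases before the annotated start. The core was searched as GAAANNGAAA on both strands (TTTCNNTTTC on the other), with overlapping matches counted. It was found in 978 of 32851 windows of that length (2.98%). It was present in the windows of Ifit1 (chr19:34640639-34640888, plus strand), Ifit3 (chr19:34583279-34583528, plus strand), Isg15 (chr4:156200819-156201068, minus strand) and Rsad2 (chr12:26456453-26456702, minus strand). The letters were not in the windows of Ifi35, Ifit2, Irf7 and Irf9, and no window was at hand for Ifi27 and Ifi204. The 4 windows are printed 5′ to 3′ in the direction of the gene, with the matches in capitals:
Ifit1: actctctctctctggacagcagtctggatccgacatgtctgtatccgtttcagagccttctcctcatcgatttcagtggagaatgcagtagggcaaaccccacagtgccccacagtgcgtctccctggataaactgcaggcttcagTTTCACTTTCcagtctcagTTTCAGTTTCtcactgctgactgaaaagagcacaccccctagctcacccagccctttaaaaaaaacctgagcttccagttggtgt
Ifit3: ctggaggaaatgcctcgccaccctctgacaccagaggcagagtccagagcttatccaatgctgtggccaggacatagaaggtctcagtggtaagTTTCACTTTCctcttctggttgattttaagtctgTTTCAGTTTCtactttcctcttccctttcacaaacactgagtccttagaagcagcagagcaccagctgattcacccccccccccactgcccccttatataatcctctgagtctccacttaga
Isg15: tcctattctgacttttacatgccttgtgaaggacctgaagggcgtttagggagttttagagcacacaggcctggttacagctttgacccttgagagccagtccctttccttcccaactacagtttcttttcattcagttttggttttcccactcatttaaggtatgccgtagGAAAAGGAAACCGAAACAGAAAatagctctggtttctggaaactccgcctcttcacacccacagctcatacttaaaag
Rsad2: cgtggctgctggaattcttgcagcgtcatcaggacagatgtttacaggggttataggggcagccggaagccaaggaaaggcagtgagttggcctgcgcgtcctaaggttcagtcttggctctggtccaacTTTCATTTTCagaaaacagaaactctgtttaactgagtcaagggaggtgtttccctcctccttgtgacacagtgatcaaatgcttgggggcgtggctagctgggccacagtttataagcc
The matches of Ifit1 began 104 and 85 bases before the start, and those of Ifit3 began 156 and 122 bases before it. Both genes held the same pair of matched sequences in the same order, TTTCACTTTC and then TTTCAGTTTC. Isg15 held 3 overlapping matches, from 78, 72 and 66 bases before the start, and Rsad2 held 1 match, from 120 bases before it. A match describes these letters only, and binding was not measured.

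The tissues carried the transcripts that define them. Cardiomyocyte markers averaged 13.88 to 14.13 on the log2 scale in heart, hepatocyte markers 12.48 to 13.42 in liver, lung epithelium markers 12.67 to 12.88 in lung and B cell markers 12.31 to 13.14 in spleen. The scanned array files fall into 4 sets by name, here called runs: liver and lung of time 1 share 1 run, spleen of time 1 is a run of its own, as is heart of time 1, and every array of time 2 is in the last. Both strains of a tissue and time lie in the same run, so that strain differences lie within runs.

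The strain comparison asked where the genes differed between A/J and C57BL/6J, and in most calls the A/J level was the lower. Each difference is A/J minus C57BL/6J on the log2 scale, fitted with limma over the 12 arrays of a tissue and called at an adjusted p (Benjamini-Hochberg over all probe sets) below 0.05. Of 52 tests of a member probe set in a tissue, 15 were called lower in A/J and 2 higher, and both higher calls were Ifi204 in lung. In liver 5 of 13 probe sets were called lower and 0 higher, beside 2.53% lower and 1.54% higher among all probe sets. In heart the counts were 4 lower and 0 higher, beside 2.91% and 4.57%. In spleen they were 3 lower and 0 higher, beside 6.67% and 6.05%, and in lung 3 lower and 2 higher, beside 2.52% and 2.7%. The tests called none higher in liver, heart or spleen, and none there reached an unadjusted p below 0.05 in that direction. The median difference of the 13 probe sets was -0.24 in liver, -0.17 in heart, -0.15 in spleen and -0.02 in lung, where the medians of all probe sets were 0.02, 0.00, -0.01 and -0.02. Rsad2, Ifit1 and Ifit3 were each called lower in A/J in 3 tissues and Isg15 in 2, while Ifit2 and Ifi35 were called in none. Fewer cells of a type and less RNA per cell cannot be told apart in bulk tissue, here or in the results that follow. A sequence difference between the strains under the probes can also change a signal. Probe sequences were not at hand, so this was not checked for any strain difference. Among the 8 genes with a promoter window, the 4 called lower in A/J in at least 2 tissues are also those whose windows held the core element. Both the motif and the cut of 2 tissues were set with the values known. The overlap therefore cannot serve as support for a link, and it was not tested.

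**Figure D1:**
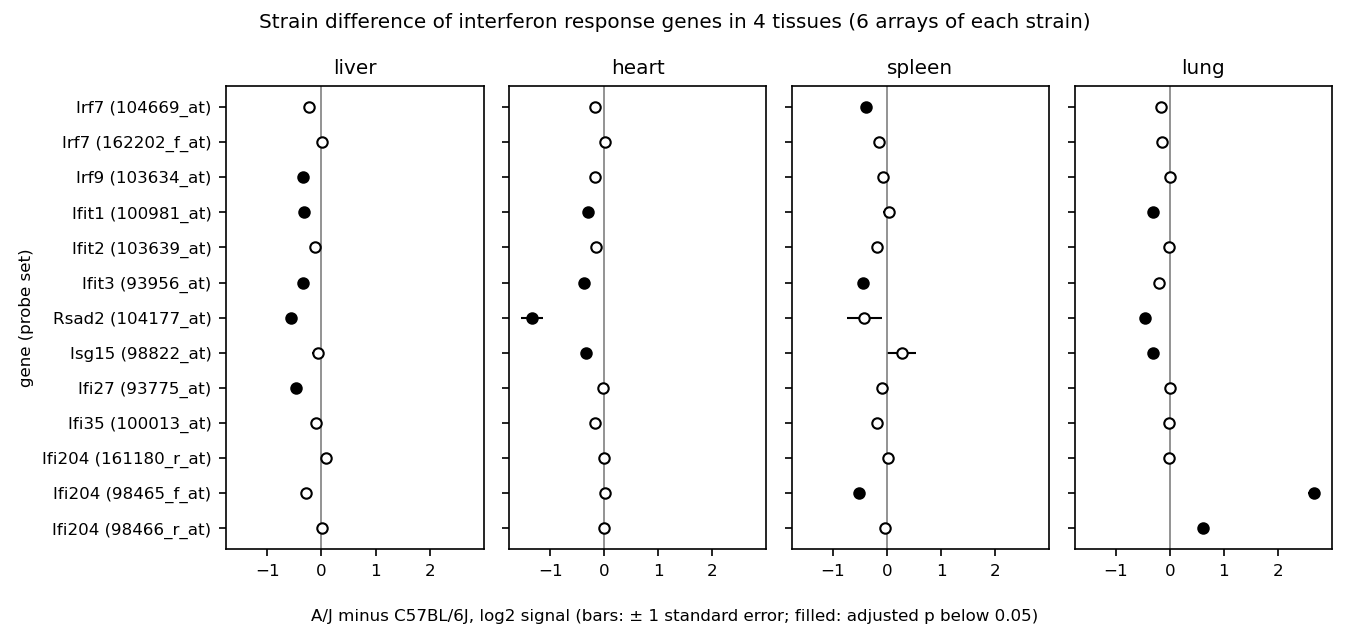
Strain difference (A/J minus C57BL/6J, log2 signal, horizontal axis) of the 13 probe sets in each tissue, with bars of 1 standard error and filled points for an adjusted p below 0.05. Most filled points lie left of 0, Rsad2 in heart lies farthest left at -1.34, and 1 Ifi204 probe set in lung lies farthest right at 2.67.

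Ifit3 and 1 Irf7 probe set (104669_at) had the lower mean in A/J in all 8 combinations of tissue and time. Of the set, 6 of 13 probe sets were lower in A/J in at least 7 of the 8, beside 6.62% of all probe sets. The strains did not overlap, over both times together, for 3 of the 13 probe sets in liver, 3 in heart, 3 in lung and 1 in spleen. Those in liver, heart and spleen were lower in A/J. In lung Rsad2 was lower in A/J, while Ifi204 was higher by 98465_f_at and by 98466_r_at. Among all probe sets the share without overlap was 1.87% in liver, 3.06% in heart, 2.64% in lung and 4.95% in spleen.

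Rsad2 showed the largest strain difference of the set apart from Ifi204. In heart at time 1 the A/J arrays read 8.61, 8.35 and 9.08 and the C57BL/6J arrays 9.68, 9.69 and 9.80. At time 2 they read 8.77, 9.04 and 8.75 against 11.14, 9.62 and 10.69. Every A/J heart thus lay below every C57BL/6J heart, and the C57BL/6J hearts of time 2 were spread the most. The difference was -1.34 (SE 0.21, 2.53-fold lower, limma adjusted p = 0.000979). In lung, A/J read 8.68 ± 0.16 and C57BL/6J 9.14 ± 0.13 (SD, n = 6), a difference of -0.46 (SE 0.07, adjusted p = 0.000832) with no overlap between strains. In liver the means were 8.64 ± 0.11 and 9.20 ± 0.31 (SD, n = 6), a difference of -0.56 (SE 0.11, adjusted p = 0.00656), and the C57BL/6J liver with the lowest value, 8.67, lay inside the A/J range. The call in these 3 tissues was kept when any single array was left out.

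Transcripts of other cell types moved with strain in some of these hearts, and their part in the result was not tested. The mean of 4 measured markers of lung epithelium was 10.06 to 10.96 in C57BL/6J hearts of time 1, 9.29 to 9.86 in A/J hearts of time 1, and 8.94 to 10.21 in hearts of time 2. The Rsad2 signal in lung was 8.52 to 9.26, and in C57BL/6J hearts it was 9.62 or more. The mean of the macrophage markers (9 genes) was 8.39 to 8.57 in A/J hearts and 8.56 to 8.76 in C57BL/6J hearts, and that of the erythroid markers (4 genes) was 10.03 to 10.33 and 10.20 to 10.64. The A/J hearts of time 1 numbered 1 and 3 had a Gapdh 3′ to 5′ difference of 1.34 and 1.41, a measure that shortened RNA raises. Without both, an alternative chosen after seeing the data, the Rsad2 difference in heart was -1.54 (adjusted p = 0.00112), and the count of called members was still 4.

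Isg15 was lower in A/J in heart and lung. In heart, A/J read 9.12, 9.19 and 9.08 at time 1 and 9.41, 9.52 and 9.42 at time 2. C57BL/6J hearts read 9.70, 9.41 and 9.61 at time 1 and 9.87, 9.57 and 9.61 at time 2, so that the strains did not overlap within either time. The difference was -0.34 (SE 0.07, limma adjusted p = 0.0062), and in lung it was -0.30 (SE 0.06, adjusted p = 0.00662). In liver it was -0.07 (SE 0.10, adjusted p = 0.799), with overlapping strains.

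**Figure D2:**
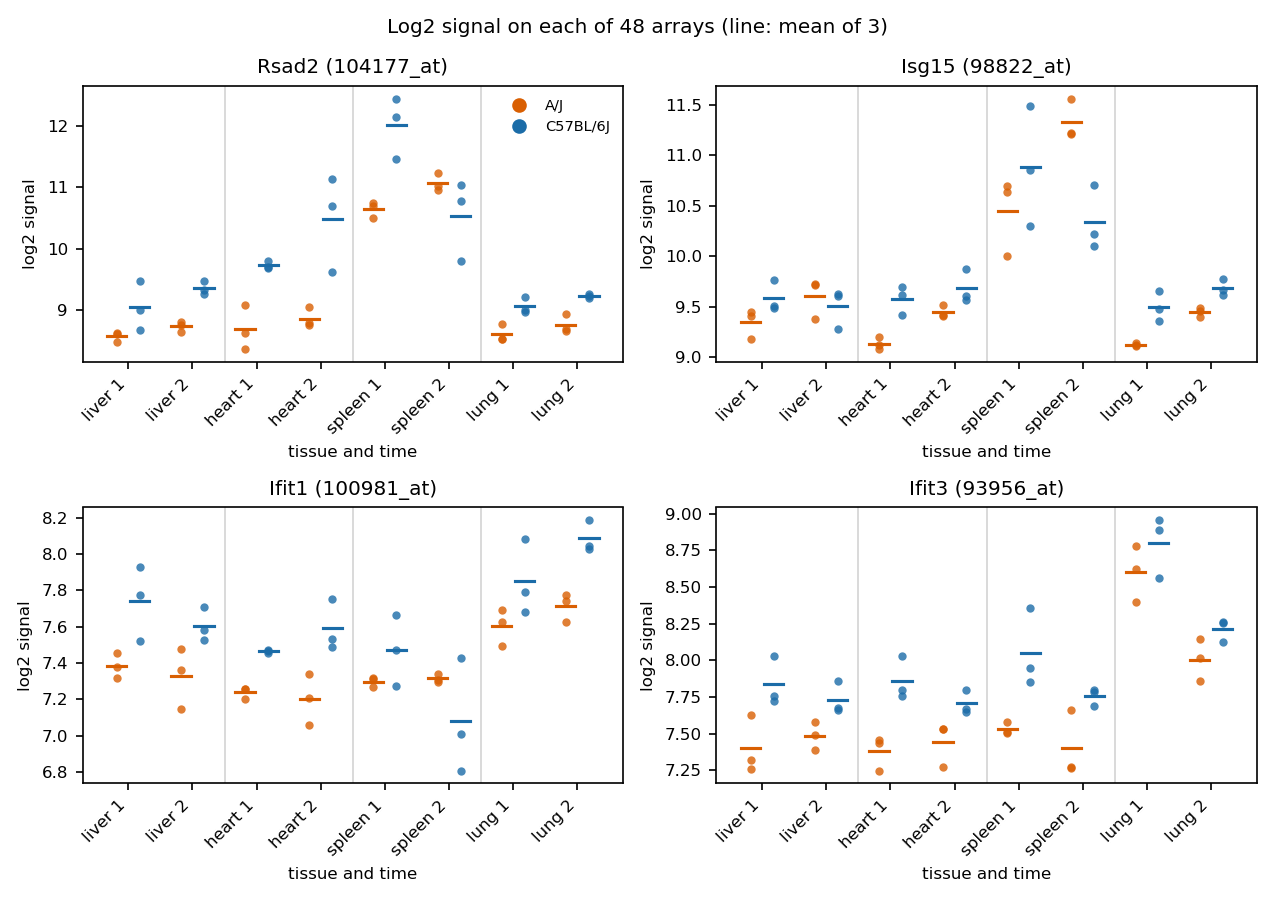
Log2 signal (vertical axis) of Rsad2, Isg15, Ifit1 and Ifit3 on each of 48 arrays, by tissue and time (horizontal axis), in orange for A/J and blue for C57BL/6J, with a line at the mean of 3 arrays. The A/J points lie below the C57BL/6J points in most columns, and the order turns in spleen at time 2 for Rsad2, Isg15 and Ifit1.

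The 3 Ifit genes, whose products bind RNA with foreign 5′ ends, were called in different numbers of tissues. Ifit3 was lower in A/J in heart (7.41 ± 0.12 against 7.78 ± 0.14, SD, n = 6), by -0.37 (SE 0.07, limma adjusted p = 0.00455). It was lower in spleen by -0.44 (SE 0.09, adjusted p = 0.00701) and in liver by -0.34 (SE 0.08, adjusted p = 0.0286), and no A/J array reached the C57BL/6J range in these 3 tissues. In lung the difference was -0.21 (SE 0.08, adjusted p = 0.187). Ifit1 was lower in heart by -0.31 (SE 0.06, adjusted p = 0.00522), in lung by -0.31 (SE 0.07, adjusted p = 0.0209) and in liver by -0.32 (SE 0.08, adjusted p = 0.0305), and in spleen it read 0.03 (SE 0.11). For Ifit2 the differences ran from -0.18 in spleen to -0.01 in lung and none was called. Ifit3 has a near-identical neighbouring gene, Ifit3b, and whether its probe set also reads that transcript was not checked. The signals of all 3 genes were in the lower part of the array, with means at percentile 22.5 (Ifit1), 26.1 (Ifit2) and 27.4 (Ifit3) of all probe sets. No detection calls were used, so these levels may lie close to background, where a difference is understated.

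Some Ifit calls lay near the threshold and were lost when 1 array was left out, with the differences little changed. In liver the Ifit1 call was lost (differences of -0.27 to -0.33, adjusted p up to 0.0812) when any of 7 of the 12 arrays was left out. These were the A/J arrays numbered 1, 2 and 3 of time 1 and 1 of time 2, and the C57BL/6J arrays 1 and 2 of time 1 and 1 of time 2. The Ifit3 call in liver was lost (-0.29 to -0.35, adjusted p up to 0.0731) without any of 6 arrays, A/J 1 and 2 of time 1, A/J 1 and 3 of time 2, and C57BL/6J 1 of each time. The Ifit1 call in lung was lost without A/J array 1 of time 1 (-0.29, adjusted p = 0.0519) or A/J array 2 of time 2 (-0.28, adjusted p = 0.0515). The Ifit3 calls in heart and spleen and the Ifit1 call in heart were kept without any single array.

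Of the transcription factors, Irf9, the DNA-binding subunit of the complex described above, was lower in A/J liver. The A/J livers read 9.91, 10.04 and 9.82 at time 1 and 10.003, 10.41 and 10.17 at time 2. The C57BL/6J livers read 10.20, 10.13 and 10.17 at time 1 and 10.63, 10.66 and 10.62 at time 2. The strains did not overlap within a time, and the difference was -0.34 (SE 0.07, limma adjusted p = 0.0113). It was -0.18 (SE 0.09) in heart, -0.07 (SE 0.09) in spleen and 0.01 (SE 0.10) in lung, none of them called. Without A/J heart array 2 of time 2, however, the heart value was -0.26 and passed (adjusted p = 0.0404).

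Irf7, the factor that amplifies interferon production, was lower in A/J spleen by its probe set 104669_at. The A/J spleens read 9.50, 9.46 and 9.39 at time 1 and 9.76, 9.26 and 9.70 at time 2. The C57BL/6J spleens read 10.23, 9.81 and 9.74 at time 1 and 9.86, 9.94 and 9.80 at time 2, above A/J within each time. The difference was -0.38 (SE 0.10, limma adjusted p = 0.0214). The other Irf7 probe set, 162202_f_at, whose suffix marks a set that can read several transcripts, gave -0.15 (SE 0.08, adjusted p = 0.246) in the same spleens. In liver the probe sets gave -0.24 and 0.02, in heart -0.18 and 0.01 and in lung -0.16 and -0.14, none of them called with all arrays. Without A/J lung array 2 of time 2, 104669_at passed in lung (-0.21, adjusted p = 0.0246).

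Ifi27, whose product lies in mitochondrial and nuclear membranes, was lower in A/J in liver alone among the strain calls. Its A/J livers read 10.80, 10.76 and 10.81 at time 1 and 11.21, 11.29 and 11.18 at time 2. The C57BL/6J livers read 11.42, 11.37 and 11.36 at time 1 and 11.80, 11.51 and 11.43 at time 2, all above every A/J liver. The difference was -0.47 (SE 0.07, 1.39-fold lower, limma adjusted p = 0.000859). It was -0.01 in heart, -0.09 in spleen and 0.01 in lung, and the strain by tissue test, which asks whether the strain difference varies over the 4 tissues, passed (adjusted p = 0.00128, beside 18.5% of all probe sets called). Ifi35, a partner of the response gene product Nmi, read from -0.18 in spleen to -0.02 in lung, and none of its differences was called. One C57BL/6J liver of time 2, array 2, had exocrine pancreas markers at 13.5 where the other livers had 9.78 to 10.2. All 5 liver calls were kept without it. Hepatocyte markers (5 genes) were at 12.48 to 12.94 in A/J livers and 12.95 to 13.42 in C57BL/6J livers, and the macrophage markers at 8.49 to 8.69 and 8.54 to 8.90. Their part in the liver differences was not tested.

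Ifi204 went the other way in lung, and there the 3 probe sets disagreed. By 98465_f_at the A/J lungs read 11.22, 10.88 and 10.72 at time 1 and 10.64, 10.53 and 10.28 at time 2. The C57BL/6J lungs read 8.12, 7.96 and 8.33 at time 1 and 8.08, 7.64 and 8.08 at time 2. The groups were far apart, the difference was 2.67 (SE 0.11, 6.38-fold higher in A/J, limma adjusted p = 3.41e-09), and all arrays of the other tissues lay between 7.90 and 9.42. By 98466_r_at the A/J lungs read 5.37 to 5.70 and the C57BL/6J lungs 4.84 to 5.14, again without overlap, a difference of 0.62 (SE 0.06, adjusted p = 3.49e-05). The mean signal of this set was at percentile 1.29 of all probe sets. By 161180_r_at the lungs of both strains read 7.42 to 7.71, and the difference was -0.02 (SE 0.05, adjusted p = 0.905). Strain by tissue passed for 98465_f_at (adjusted p = 8.58e-23) and for 98466_r_at (1.05e-07). The macrophage markers of lung were alike in range, at 8.83 to 9.02 in A/J and 8.86 to 9.06 in C57BL/6J. Neutrophil markers (7 genes) were at 8.94 to 9.58 in A/J lungs and 9.45 to 10.18 in C57BL/6J lungs. NK cell markers (3 genes) were at 6.22 to 6.47 and 6.45 to 6.74. Hepatocyte markers (5 genes) were at 9.56 to 10.01 and 8.34 to 9.69 at time 1, and at 7.60 to 8.18 and 7.95 to 8.20 at time 2. Cardiomyocyte markers (6 genes) were at 9.33 to 10.50 in A/J lungs and 9.62 to 11.27 in C57BL/6J lungs. The part of all these cell types in the lung differences of strain, time or tissue was not tested.

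In spleen the same 98465_f_at was lower in A/J. The A/J spleens read 8.71, 8.54 and 8.72 at time 1 and 8.35, 8.15 and 8.21 at time 2, and the C57BL/6J spleens 9.22, 9.42 and 9.16 at time 1 and 8.56, 8.73 and 8.65 at time 2. The strains did not overlap within a time, and the difference was -0.51 (SE 0.07, limma adjusted p = 0.000452). In liver it was -0.29 (SE 0.09, adjusted p = 0.0817), which passed without C57BL/6J array 3 of time 2 (-0.36, adjusted p = 0.0229), and in heart it was 0.02 (SE 0.08). Neither 98466_r_at (-0.03) nor 161180_r_at (0.01) was called in spleen. Ifi204 is 1 of several closely related HIN-200 genes, and probe sets with these suffixes can read more than 1 of them, so the gene behind each signal is uncertain. A further probe set, annotated to several genes and therefore no member, was lower in A/J in all 4 tissues, by -1.25 in liver, -1.99 in heart, -3.66 in spleen and -1.83 in lung. Among 3 other measured HIN-200 genes, Ifi202b was higher in A/J in all 4 tissues (0.38 in liver, 0.43 in heart, 0.92 in spleen and 0.52 in lung), and in spleen Ifi209 (-1.48) and Ifi207 (-0.39) were lower.

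**Figure D3:**
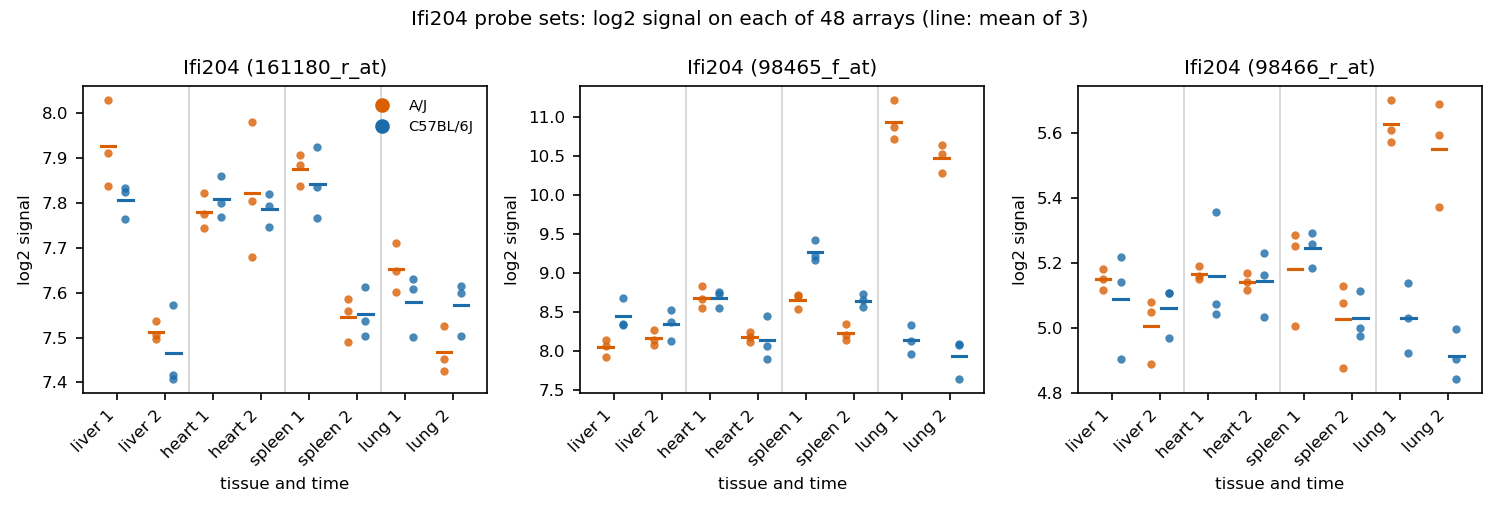
Log2 signal (vertical axis, a separate range in each panel) of the 3 Ifi204 probe sets on each of 48 arrays by tissue and time, in orange for A/J and blue for C57BL/6J, with a line at the mean of 3 arrays. The A/J lungs stand above all other arrays for 98465_f_at (10.28 to 11.22) and 98466_r_at (5.37 to 5.70), but not for 161180_r_at.

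In spleen the strain order of the Rsad2 and Isg15 means was not the same at both times, though the test of that change did not pass for either. At time 1 Rsad2 read 10.74, 10.70 and 10.50 in A/J and 12.46, 11.46 and 12.16 in C57BL/6J. At time 2 it read 10.95, 11.23 and 11.03 in A/J and 9.79, 10.78 and 11.04 in C57BL/6J. The C57BL/6J spleens were therefore all higher at time 1, while at time 2 they overlapped A/J. The difference was -1.38 at time 1 (SE 0.28, limma adjusted p = 0.0194) and 0.53 at time 2, and over both times it was -0.42 (SE 0.33, adjusted p = 0.493). Isg15 read 10.004, 10.64 and 10.69 in A/J against 11.49, 10.30 and 10.86 in C57BL/6J at time 1, with overlap. At time 2 it read 11.21, 11.22 and 11.56 against 10.22, 10.10 and 10.70, where A/J was higher by 0.99 (SE 0.27, adjusted p = 0.0233). The test of the change itself, strain by time, gave 1.91 for Rsad2 (SE 0.40, adjusted p = 0.0678) and 1.43 for Isg15 (SE 0.38, adjusted p = 0.0989), so neither passed. In liver the Isg15 means also changed order, from 9.35 in A/J and 9.58 in C57BL/6J at time 1 to 9.61 and 9.50 at time 2, with a strain by time value of 0.34 (SE 0.18, adjusted p = 0.25).

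These spleen values depended on which arrays were used. The Rsad2 call at time 1 was lost without A/J array 2 or 3 or C57BL/6J array 1 or 3 of that time (-1.16 to -1.40, adjusted p of 0.0559 to 0.0912). The Isg15 call at time 2 was lost without A/J array 2 or 3 or C57BL/6J array 1 or 2 of that time (0.87 to 1.05, adjusted p of 0.0542 to 0.0838). Conversely, strain by time passed for Rsad2 without A/J array 1 of time 2 (1.97, adjusted p = 0.0415), C57BL/6J array 2 of time 1 (2.19, 0.0155) or C57BL/6J array 3 of time 2 (2.16, 0.0205). It passed for Isg15 without C57BL/6J array 2 of time 1 (1.72, 0.0277). Exocrine pancreas markers (5 genes) were at 12.9 to 13.7 in 5 spleens and 9.87 to 10.8 in the other spleens. The 5 were A/J arrays 1 and 3 of time 1 and C57BL/6J array 2 of time 1 and arrays 1 and 3 of time 2. Without these 5, which leaves a single A/J array at time 1 and a single C57BL/6J array at time 2, assumed to vary like the rest, and which is an alternative chosen after seeing the data, Rsad2 was -1.61 at time 1 (adjusted p = 0.00893). Its strain by time value was 1.91 and passed (adjusted p = 0.0338), and Isg15 at time 2 was 1.23 (adjusted p = 0.0271). In the same fit the calls over both times fell from 3 to 1: Ifi204 by 98465_f_at held at -0.57 (adjusted p = 0.0242), while Ifit3 gave -0.49 (0.182) and Irf7 -0.44 (0.258). Hepatocyte markers were at 9.09 to 9.88 in the A/J spleens of time 2 and 7.76 to 8.68 in the other spleens. The macrophage markers were at 9.59 to 9.69 in A/J spleens and 9.84 to 10.09 in C57BL/6J spleens, the B cell markers at 12.31 to 12.68 and 12.84 to 13.14, and the NK cell markers (3 genes) at 6.57 to 6.73 and 7.08 to 7.35. Neutrophil markers were at 9.90 to 10.65 in A/J spleens and 9.06 to 9.997 in C57BL/6J spleens. Erythroid markers were at 11.42 to 11.62 in A/J and 10.69 to 11.37 in C57BL/6J at time 1, and at 11.74 to 12.05 and 10.31 to 10.48 at time 2. Their range at time 2 thus lay above that at time 1 in A/J and below it in C57BL/6J. The part of all these cell types in the spleen differences was not tested.

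Strain was also tested at each time, as a contrast of 3 arrays a strain in a fit that takes its spread from all 12 arrays of the tissue. In liver 1 was called at time 1 (Ifi27, beside 2.93% of all probe sets) and 3 at time 2 (Ifi27, Irf9 and Rsad2, beside 12.9%). In heart 3 were called at time 1 (Ifit3, Isg15 and Irf7 by 104669_at, beside 4.7%) and 2 at time 2 (Ifit1 and Rsad2, beside 5.23%). In spleen Ifi204 by 98465_f_at was called at both times, with Rsad2 at time 1 (beside 2.91%) and Isg15 at time 2 (beside 16%). In lung Rsad2 and both called Ifi204 sets passed at each time, with Isg15 at time 1 (beside 2.14%) and Ifit1 at time 2 (beside 10.2%). The single-time calls of Ifi27 in liver at time 1, Irf9 in liver at time 2, Rsad2 in heart at time 2 and Ifi204 in spleen and lung were kept without any single array.

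The other single-time calls were lost without certain arrays, of the same time except where another is named. In liver at time 2, Ifi27 was lost without A/J array 1 or 3 or C57BL/6J array 1 (-0.24 to -0.34, limma adjusted p up to 0.072), and Rsad2 without C57BL/6J array 1 (-0.57, adjusted p = 0.0552). In heart at time 1, Ifit3 (-0.40 and -0.41) and Isg15 (-0.38 and -0.42) were lost without A/J array 3 or C57BL/6J array 1. Isg15 was also lost there without C57BL/6J array 3 (-0.43), and Irf7 without A/J array 1 or 3 or C57BL/6J array 1 or 3 (-0.25 to -0.32, adjusted p up to 0.135). In heart at time 2, Ifit1 was lost without array 1 of either strain (-0.32 and -0.31). In lung at time 1, Rsad2 was lost without array 1 or 2 of either strain (-0.38 to -0.48, adjusted p up to 0.131), and Isg15 without any A/J array or C57BL/6J array 1 or 3 (-0.29 to -0.38, adjusted p up to 0.118). In lung at time 2, Rsad2 was lost without A/J array 1 (-0.42, adjusted p = 0.0547), and Ifit1 without A/J array 1 or 2, any C57BL/6J array, or A/J array 3 of time 1 (-0.32 to -0.40, adjusted p up to 0.0915).

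No member passed strain by time with all arrays under limma in liver (4.9% of all probe sets called), heart (0.386%), spleen (0.209%) or lung (0.177%). At an unadjusted p below 0.05, 1 member probe set would be counted in liver, 2 in heart, 4 in spleen and 2 in lung, of 13 in each. The shares of all probe sets at that p were 24%, 10.7%, 19.6% and 18%, so the counts in liver, heart and lung were near or below the background. Irf9 in lung came close: at time 1 the A/J arrays read 9.99, 10.22 and 10.05 against 10.47, 10.30 and 10.30 in C57BL/6J, and at time 2 they read 11.12, 10.98 and 10.82 against 10.79, 10.65 and 10.62. A/J lungs were thus all below C57BL/6J at time 1 and all above at time 2. The value was 0.56 (SE 0.13, adjusted p = 0.101), and it passed without A/J array 3 of time 2 (0.63, adjusted p = 0.0499). Irf7 by 162202_f_at turned in the same way in liver, from 8.76 to 8.81 in A/J and 8.89 to 9.10 in C57BL/6J at time 1 to 8.77 to 9.01 and 8.65 to 8.76 at time 2. Its value was 0.41 (SE 0.11, adjusted p = 0.0543), and it passed without A/J array 2 of time 2 (0.49, 0.0156) or C57BL/6J array 2 of time 1 (0.46, 0.0474). The other Irf7 probe set, 104669_at, did not turn in these livers. Its means were lower in A/J both at time 1 (9.21 against 9.47) and at time 2 (9.48 against 9.70).

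**Figure D4:**
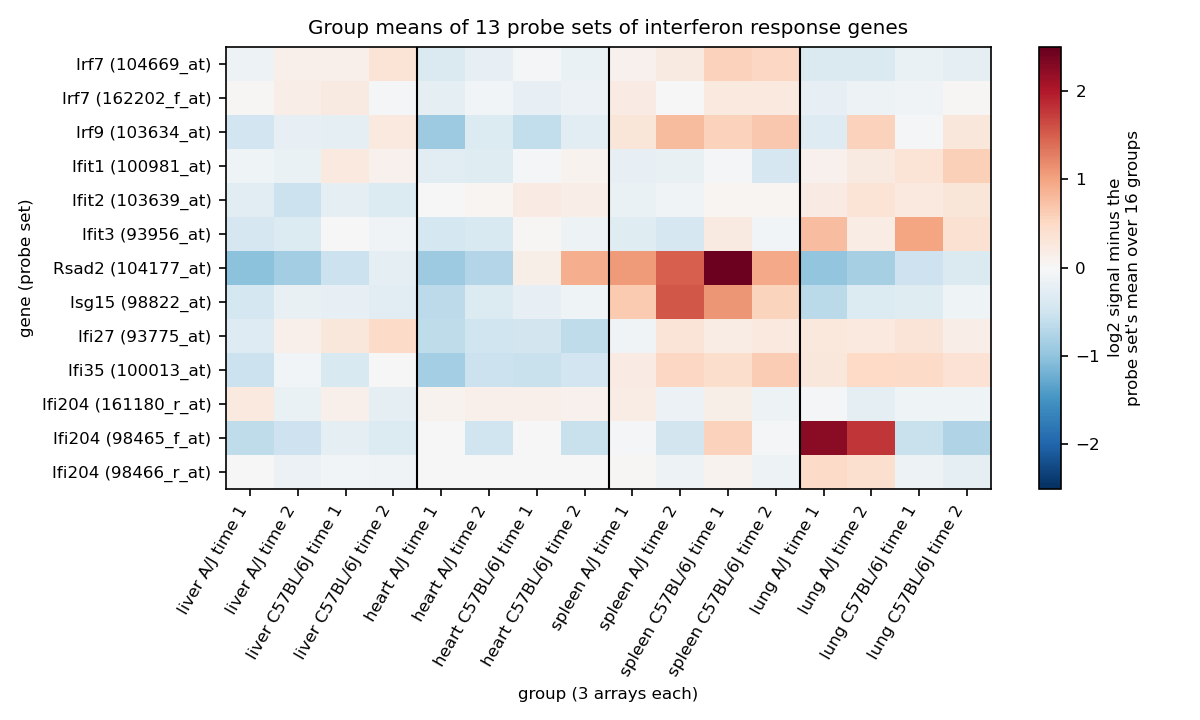
Group means (3 arrays each) of the 13 probe sets, shown as log2 signal minus the mean of the probe set over the 16 groups, with red above and blue below that mean. Rsad2, Isg15 and Irf9 are red across spleen, the Ifit genes are red in lung, and the A/J lungs stand out for 2 Ifi204 probe sets.

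The tissues were compared at time 2, where all arrays share 1 run, with strain as an additive term. Spleen held the highest Rsad2 (10.80 ± 0.52, SD, n = 6), followed by heart (9.67 ± 1.03), liver (9.04 ± 0.36) and lung (8.99 ± 0.28). Spleen exceeded liver by 1.77, lung by 1.82 and heart by 1.14 (limma adjusted p of 9.94e-06, 9.93e-06 and 0.00145), and liver and lung differed by less than their spread. These values average over the strains, which were not alike. In A/J the means were 11.07 in spleen, 8.85 in heart, 8.75 in lung and 8.72 in liver. In C57BL/6J they were 10.54 in spleen, 10.48 in heart, 9.35 in liver and 9.22 in lung. At this time heart thus lay near spleen in C57BL/6J and near liver and lung in A/J. The C57BL/6J values were widely spread (SD 0.66 in spleen and 0.78 in heart, n = 3). C57BL/6J spleen arrays 1 and 3 of time 2 were among those high in exocrine pancreas markers. At time 1, where spleen and heart lie in different runs, the C57BL/6J means were 12.03 in spleen and 9.72 in heart. Heart exceeded lung by 0.68 (adjusted p = 0.0437), a call lost without any of 7 of the 24 arrays, and liver minus heart was -0.63 (adjusted p = 0.0712). Isg15 was likewise highest in spleen (10.84 ± 0.59, n = 6), while the means of heart, liver and lung lay at 9.55 to 9.57. Irf9 was ordered spleen (11.13 ± 0.14), lung (10.83 ± 0.19), liver (10.42 ± 0.27) and heart (10.10 ± 0.21). All neighbours in that order passed, but the steps from spleen to lung and from liver to heart were lost when any of 6 and any of 5 of the 24 arrays, respectively, was left out.

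The Ifit genes had another order, with lung highest for all 3. Ifit1 in lung (7.90 ± 0.22, SD, n = 6) exceeded liver by 0.43, heart by 0.50 and spleen by 0.70 (limma adjusted p of 0.00156, 0.000377 and 8.45e-06). Ifit3 in lung (8.11 ± 0.15) exceeded liver by 0.50, heart by 0.54 and spleen by 0.53, and the means of those tissues lay at 7.57 to 7.61. Ifit2 was lowest in liver (7.30 ± 0.13) and highest in lung (8.06 ± 0.12), but its call between heart and lung was lost without either of 2 of the 24 arrays. The Gapdh 3′ to 5′ difference at time 2 was also highest in lung, at 1.05 to 1.96, against 0.48 to 0.90 in spleen, 0.16 to 0.35 in liver and 0.083 to 0.23 in heart, and its part in the tissue differences was not tested. Ifi27 and Ifi35 were lowest in heart, at 10.55 ± 0.11 and 9.40 ± 0.10, and the means of Ifi27 in liver, spleen and lung lay at 11.31 to 11.40, with no pair of them called. Irf7 by 104669_at was higher in spleen (9.72 ± 0.24) and liver (9.59 ± 0.19) than in heart (9.16 ± 0.04) and lung (9.05 ± 0.12). Of its other probe set, 162202_f_at, the pair of heart and spleen alone was called (-0.22, adjusted p = 0.0214, lost without any of 3 of the 24 arrays).

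Called tissue differences were common on the array. Of the 13 probe sets, 6 were called between liver and heart (51.6% of all probe sets called), 6 between liver and spleen (57.2%) and 7 between liver and lung (61.6%). Heart and spleen gave 8 (63%), heart and lung 9 (63%), and spleen and lung 7 (48.2%). Liver and lung also share a run at time 1, where 10 members were called (79.3%). There liver minus lung was again below 0 for Ifit3 (-1.08) and Ifi35 (-0.83), while both Irf7 probe sets were higher in liver.

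Time 2 minus time 1 was tested within each tissue. By file name, however, every tissue lies in another run at each time, so time and run cannot be told apart. Irf9 was higher at time 2 in all 4 tissues, by 0.37 in liver, 0.46 in heart, 0.30 in spleen and 0.61 in lung (limma adjusted p of 0.000876, 0.00178, 0.026 and 0.000567). The call in spleen was lost when any of 5 of 12 arrays was left out. In liver 4 members were higher at time 2 (20.2% of all probe sets) and 2 lower (30.1%), and in heart 2 higher (15.7%) and 1 lower (19.3%). In spleen 2 were higher (13%) and 3 lower (18.9%), and in lung 2 higher (15.8%) and 2 lower (18.9%). Ifit3 was lower at time 2 in lung by -0.59 (SE 0.08), and Ifi204 by 98465_f_at was lower in heart (-0.52), spleen (-0.52) and lung (-0.33, a call lost without any of 6 of 12 arrays).

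Within groups the members moved together only weakly. Over the deviations of 48 arrays from their group means, the 78 pairs of probe sets had a median correlation of 0.0712, and 55 pairs were above 0. The highest were Ifit3 with Ifi204 by 98465_f_at (0.604), Ifi27 with Ifit3 (0.512) and Ifit1 with Rsad2 (0.506). The values were normalized by the authors in a way that is not stated, and no test is given. One array had the largest mean deviation of the members, C57BL/6J spleen array 1 of time 1, at 0.196 with 11 of 13 above their group mean. That array held the highest Rsad2 of the series (12.46) and the highest Irf7 by 104669_at (10.23). The count above the group mean was also 11 of 13 in A/J heart array 2 of time 2, where the mean deviation was 0.0769.

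Over the 16 group means, the probe set whose pattern was most like Rsad2 was Cd28 (Pearson correlation 0.899), a T cell co-receptor, then Kif23 (0.897) and Isg15 (0.89). For Isg15 the closest were Gm9706 (0.97), Pola2 (0.957) and Kif23 (0.947), the latter 2 a DNA polymerase subunit and a mitotic kinesin. Ifi204 by 98465_f_at was closest to its own 98466_r_at (0.939), then Ccl6 (0.772) and Gnb1 (0.758). Ifi27 was closest to Adss (0.955), Irf9 to Ptbp3 (0.938), Irf7 by 104669_at to Ppdpf (0.921), Ifit1 to Rbbp9 (0.893) and Ifit3 to Atp7a (0.882). Groups of 1 tissue share much of their pattern, so tissue levels enter all these values.

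The rest of the pathway, in lists chosen by role, showed few strain calls outside spleen and heart. Of 10 probe sets of the interferons themselves (9 genes), 0 were called for strain by limma in any tissue, and 1, in heart, had an unadjusted p below 0.05. Their medians lay between -0.06 and 0.01. Of 16 sets of receptor and signalling genes (13 genes), 1 was lower in A/J liver (Usp18, a protease that removes Isg15, -0.27), 1 higher in heart (Ifnar1, a receptor chain, 0.21), 6 lower in spleen and 1 higher in lung (a Socs3 probe set, 0.22). The list's medians lay between -0.06 and -0.03. Those in spleen included the interferon-gamma receptor chain Ifngr2 (-0.51) and the feedback inhibitors Socs1 (-0.35) and Socs3 (-0.40). Of 8 sets of sensors and adaptors (6 genes), Traf6 was lower in heart (-0.28) and spleen (-0.45), Myd88 lower in spleen (-0.25), and Ifih1, a sensor of double-stranded RNA, higher in lung (0.25). Medians lay between -0.12 and -0.01. Of 6 sets of other interferon regulatory factors, Irf8 (-0.35) and Irf5 (-0.41) were lower in spleen and no other call was made in any tissue. Medians lay between -0.18 and 0.05. Of 56 sets of other response genes (43 genes), 1 was lower in liver (Nmi, -0.36), 7 lower and 1 higher in heart, 15 lower and 4 higher in spleen, and 3 lower and 1 higher in lung. Ly6e was lower in heart (-0.87) and lung (-0.21), Tap1, a peptide transporter, lower in spleen (-1.17), and Cmpk2, the genomic neighbour of Rsad2, lower in lung (-0.28). Tor3a was higher in A/J in heart (0.29) and lung (0.59), the only higher call of this list in each, and its lung call had the smallest p of the list there. The shares of all probe sets called lower and higher, given above, apply to these counts as well. The 4 calls of 56 in lung are near that background, while the 15 lower of 56 in spleen are above it. The median of this list was -0.05 in liver, -0.09 in heart, -0.12 in spleen and -0.07 in lung.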

How the data were processed

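Expression was measured on 48 Affymetrix MG-U74Av2 arrays, 1 per sample and 3 per group, from about 20 micrograms of total RNA each, per the labels. The deposited values are log2 signals per probe set, and the authors' normalization method was not given in any source used here. Array medians lay between 8.87 and 9.02, and no filter or further scaling was applied. The 66 control probe sets were left out. Symbols came from the platform annotation, which gave 1 symbol for 10833 probe sets, several for 396 and none for 1193. The number of arrays limits the precision.

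Tests used limma 3.58.1 in R 4.3.3 (lmFit, eBayes) with Benjamini-Hochberg adjustment over 12422 probe sets. Strain was fitted in each tissue with time as a term, time with strain as a term, and strain by tissue over all 48 arrays by an F test. The members, lists, tests and motif were chosen with earlier results of these data known. All member probe sets are given. For other lists the text names up to 4 called probe sets per tissue with the smallest p, and for each member called for strain the probe sets most like it. Alternatives were re-centred and quantile-normalized values, a filter on low signals, other eBayes settings, array weights, a replicate block and leaving out arrays. The calculations were tested on simulated data. Whether equal replicate numbers mark related arrays could not be decided, because pairs of unequal number were not computed for comparison. Of 24 equal-number pairs across strains 7 correlated over 0.1, in deviations from group means (-0.577 to 0.363). Of 36 such pairs across tissues, all in the last run, 8 did (-0.337 to 0.287).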

Additional observations from a re-analysis of the deposited data

Results flagged for a closer look

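The strain difference varied between tissues for 3 probe sets of the set, by the F test over all 48 arrays. That is 3 of 13, near the 18.5% of all probe sets called in this test. For Ifi204 by 98465_f_at (limma adjusted p = 8.58e-23) A/J was higher in lung by 2.67, while the values were -0.51 in spleen, -0.29 in liver and 0.02 in heart. For Ifi204 by 98466_r_at (adjusted p = 1.05e-07) the value was 0.62 in lung and between -0.03 and 0.00 in the other tissues. For Ifi27 (adjusted p = 0.00128) it was -0.47 in liver and -0.09 to 0.01 in the others. All 3 stayed below 0.05 when any single array was left out.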

How the results depend on the processing

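Of 360 recomputed values of the 17 called strain differences, 319 stayed past the threshold, 41 fell short of it and 0 reversed. These fits reuse the arrays that gave the calls, so the lack of reversals is not independent support. The calls were not equally stable: Ifit1 in liver was kept in 10 of 20 settings and Ifit3 in liver in 12 of 21. The called members in liver went from 5 to 3 with the replicate block, to 1 at time 1 alone and 2 at time 2 alone (fits of the 6 arrays of that time, unlike the contrasts over 12 arrays given above), and to between 3 and 6 without single arrays. Heart went from 4 to 1 at time 2 alone. Lung went from 5 to 3 with a filter on low signals, in 1 fit over all 48 arrays and at time 2 alone. Spleen went from 3 to 1 without the 5 arrays high in pancreas markers, an alternative chosen after seeing the data. Calls at single times went from 21 to 38 with array weights. Strain by time went from 0 to 1 with the low filter, 5 with array weights, 1 without the 5 spleen arrays, and 0 to 2 without single arrays. Strain by tissue went from 3 to between 3 and 6, with 6 (Ifit1, Rsad2 and Isg15 added) without C57BL/6J spleen array 1 of time 1. The causes were not tested, though single times and left-out arrays use fewer samples and the low filter removes probe sets. The replicate block changed no other count by over 1.5 times. Scaling moved the median of all probe sets by less than 0.1. Signals near background, such as that of 98466_r_at, understate differences.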
